A study of Mus musculus with 8 samples.

Results

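A set of 10 genes known as secreted Wnt antagonists or feedback genes was followed in CD249+ and CD249− fibroblasts sorted from mouse lung. They are Sfrp1, Sfrp2, Sfrp4, Frzb, Dkk2, Dkk3, Wif1, Axin2, Lef1 and Nkd1. They were chosen by gene symbol, with earlier results of these data known, and all 10 were found among the 25509 genes of the count table. CD249+ fibroblasts came from mice 2, 7, 8 and 10, and CD249− fibroblasts came from the same 4 lungs, which gave 8 RNA-seq libraries. All mice were wild-type C57Bl6/J; ages and sexes are not given in the sources used here. Both fractions were sorted as negative for the leukocyte, epithelial and endothelial surface proteins CD45, CD326 and CD31. They differed by flow sorting for CD249, the enzyme encoded by Enpep. The name fibroblasts is that of the sample titles. The count columns call the CD249+ libraries LIF and the CD249− libraries Ctrl, and each library is the RNA of the sorted cells of 1 mouse.

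Wnt proteins are secreted signals that bind Frizzled receptors and the co-receptors LRP5 and LRP6, and in the canonical branch stabilise beta-catenin, which then acts with TCF and LEF proteins on target genes. Secreted antagonists limit the signal outside the cell: SFRP proteins and WIF1 bind Wnts, and Dickkopf proteins such as DKK2 bind the LRP co-receptors. Axin2, Nkd1 and Lef1 are known as genes that canonical Wnt signalling induces in many tissues, and the Axin2 and Nkd1 proteins restrain the pathway in the cell. In lung, mesenchymal Wnt signals are known to act on alveolar epithelial stem cells and on airway smooth muscle.

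Library totals ran from 28932788 to 30921169 counts in CD249+ and from 23011383 to 31906414 in CD249− fibroblasts. Enpep averaged 241 ± 64.8 CPM in CD249+ and 8.98 ± 5.61 CPM in CD249− fibroblasts (SD, n = 4 each; CPM, counts relative to the library total, with totals scaled by TMM), a 26.7-fold difference in the direction of the sort. In the marker lists, all 10 alveolar fibroblast genes and all 10 peribronchial and ductal myofibroblast genes were higher in CD249+ fibroblasts, as were all 9 pericyte genes and 7 of 8 smooth muscle genes. Of 10 adventitial fibroblast genes 1 was higher, 2 were lower and 7 did not pass, with sums between 4002 and 8331 CPM in CD249+ and between 5525 and 7862 CPM in CD249− fibroblasts. The 8 core collagen genes summed to between 14066 and 24848 CPM in CD249+ and between 4223 and 10786 CPM in CD249− fibroblasts. Transcripts of cells outside the gate were present in both fractions. The 12 endothelial genes summed to between 3786 and 7117 CPM in CD249+ and between 11584 and 15581 CPM in CD249− fibroblasts, with 11 lower and 1, Gja5, higher, and none at 0. The 9 lymphocyte genes found summed to between 35.1 and 78.4 CPM in CD249+ and between 32.9 and 184 CPM in CD249− fibroblasts. The CD249+ library of mouse 10 stood apart in epithelial transcripts: the 10 epithelial genes, led by Sftpc, summed to 8363 CPM there and to between 413 and 894 CPM in the other CD249+ libraries, against 164 to 725 CPM in CD249− fibroblasts, and 2 of 9 tested were higher. Values without that library are given with the left-out fits at the end. The 8 tested genes of other leukocytes did not pass the test, and that list summed to between 1072 and 3313 CPM in CD249+, highest in that same library, and between 1340 and 2335 CPM in CD249− fibroblasts. Of 6 tested mesothelial genes 5 were lower, of 4 chondrocyte genes 2 were lower, with Acan and Matn1 at 0 in every library, and the 3 tested Schwann cell genes did not pass. In sorted bulk samples a higher level per cell and a larger share of the cells that make a transcript cannot be told apart, and the part of these cell mixtures in the results below was not tested.

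Of the 10 genes, 4 were higher in CD249+ fibroblasts, 2 were lower and 4 did not pass the test, with a median log2 fold change of 0.88. Among all 14524 genes tested, 16.9% were called higher and 13.9% lower, 30.8% in all, at a median of -0.02. Because the 10 genes were chosen with earlier results of these data known, these shares are set beside theirs without a test. Of the 10 genes, 5 were higher and 3 lower in CD249+ fibroblasts in all 4 mice. The same held for 3852 and 3843 of all genes tested, so 1 direction in all mice was common. How many of all genes had no overlap between fractions was not counted, so overlap or its absence only describes each gene below. The genes that rose were Sfrp1, Wif1 and Dkk3 among the secreted proteins and Axin2 among the feedback genes. Those that fell were Sfrp4 and Nkd1, while Sfrp2, Frzb, Dkk2 and Lef1 did not pass. These calls come from a fit of group alone, which leaves out the pairing by mouse. With mouse as a block 4 of the 10 genes were called higher and 3 lower, with Sfrp2 added. In that fit 2809 of all genes tested were called higher and 2489 lower. Each fold change is the log2 ratio of the CD249+ to the CD249− level with its standard error (SE), and adjusted p values are two-sided, from edgeR's quasi-likelihood test with Benjamini-Hochberg adjustment over all genes tested, called below 0.05. These directions are relative to the TMM scale: with libraries scaled to the 8 collagen genes, which moved the median of all genes to -1.66, Axin2, Dkk2 and Lef1 turned negative and none of the 10 was called higher by edgeR. Of them, 1 (Wif1) was higher there at an unadjusted p under 0.05, and DESeq2 and limma-voom were not run on that scale. Measured from that shifted median, Sfrp1 stood at 1.77, Dkk3 at 2.29, Wif1 at 2.54 and Axin2 at 1.25. On the TMM scale these genes stood at 1.78, 2.29, 2.41 and 1.31. Subtracting the median undoes most of the shift, so the first values were bound to lie near these. They do not show that the rises hold on the collagen scale.

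**Figure D1:**
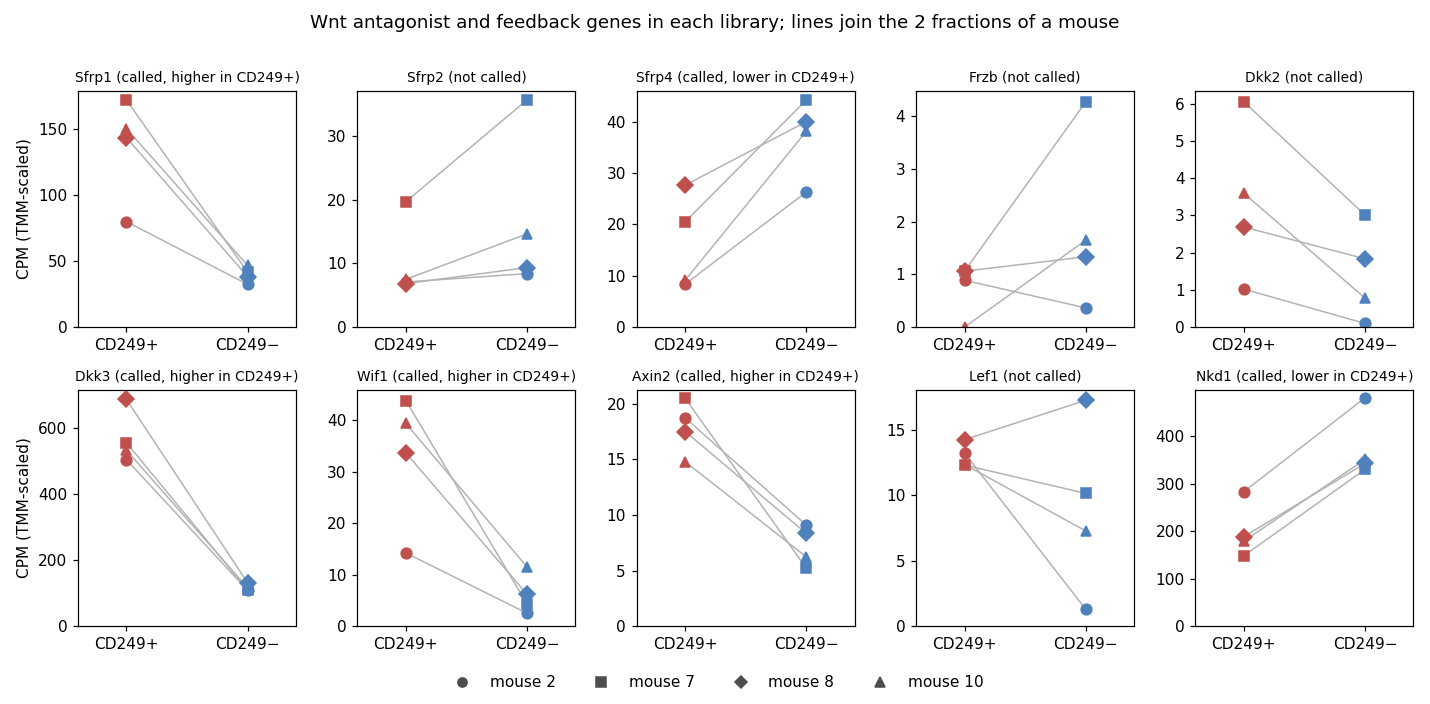
TMM-scaled CPM of each gene in the 4 CD249+ libraries (red, left) and the 4 CD249− libraries (blue, right), with lines joining both fractions of a mouse and a separate axis for each gene. Sfrp1, Dkk3, Wif1, Axin2 and Nkd1 show no overlap between fractions, and how common that is among all genes was not counted. On the collagen scale the direction of Axin2, Dkk2 and Lef1 flips.

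Promoter sequences are shown for the called genes that have one in the RefSeq table, as the windows that carry the start sites of 2 genes that rose and 1 that fell. Windows for 7 of the 10 genes were found, on GRCm38.p6, each with 250 bases before and 50 from the start; Sfrp1, Sfrp4 and Dkk3 are named only. Where a gene had several windows, the one nearest to the GENCODE M21 gene start was taken. Capitals mark the letters CTTTG or their reverse complement CAAAG, the core that TCF and LEF proteins are known to bind.
Wif1 (chr10:121033754-121034053, + strand): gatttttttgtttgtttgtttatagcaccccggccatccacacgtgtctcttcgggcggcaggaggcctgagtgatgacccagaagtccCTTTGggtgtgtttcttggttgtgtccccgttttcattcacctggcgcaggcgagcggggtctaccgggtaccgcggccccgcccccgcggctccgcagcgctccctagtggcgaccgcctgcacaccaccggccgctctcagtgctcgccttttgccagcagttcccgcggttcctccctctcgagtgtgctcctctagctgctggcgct
Axin2 (chr11:108920099-108920398, + strand): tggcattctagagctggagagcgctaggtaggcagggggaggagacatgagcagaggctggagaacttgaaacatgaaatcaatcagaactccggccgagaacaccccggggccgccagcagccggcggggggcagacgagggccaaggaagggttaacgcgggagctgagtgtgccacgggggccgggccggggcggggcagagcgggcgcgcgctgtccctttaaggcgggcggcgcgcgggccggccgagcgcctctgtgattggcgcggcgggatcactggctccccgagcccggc
Nkd1 (chr8:88527383-88527682, + strand): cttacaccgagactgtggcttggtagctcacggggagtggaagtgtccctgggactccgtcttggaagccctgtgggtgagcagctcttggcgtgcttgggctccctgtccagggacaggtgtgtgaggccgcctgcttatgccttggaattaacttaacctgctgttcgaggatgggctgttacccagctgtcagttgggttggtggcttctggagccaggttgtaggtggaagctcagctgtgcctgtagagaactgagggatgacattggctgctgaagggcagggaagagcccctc
The core was found 1 time in the Wif1 window and not in those of Axin2 and Nkd1. It occurs in 53.9% of all 32851 windows of 300 bases. Frzb and Dkk2 each held 1 match and Lef1 held 2, while Sfrp2 held none. The longer forms CTTTGAA and CTTTGAT, searched on both strands and overlapping the core, were in none of the 7 windows and in 8.7% of all windows. The Axin2 window is the richest of these 7 in G and C, at 70.0% with 31 CpG dinucleotides, and the Wif1 window has 63.0% and 25, against medians of 52.7% and 7 over all windows. The Nkd1 window has 58.3% and 6, and its start lies 6279 bases inside the GENCODE gene, outside the exons annotated there for Nkd1. A match is a run of letters and not a shown binding site.

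Sfrp1 encodes a secreted protein whose cysteine-rich domain resembles that of Frizzled receptors. Its gene (ENSMUSG00000031548.7, chromosome 8, 23411502 to 23449632, plus strand, GRCm38) had 80.1, 172, 144 and 151 CPM in CD249+ fibroblasts of mice 2, 7, 8 and 10, against 32.4, 41.7, 38.3 and 46.8 CPM in CD249− fibroblasts. Every CD249+ library lay above every CD249− library, and mouse 2 was lowest in both fractions. The fold change was 1.78 (SE 0.22, adjusted p = 0.00028), higher in 4 of 4 mice.

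Sfrp4, of the same family, moved the other way. The gene (ENSMUSG00000021319.6, chromosome 13, 19623104 to 19632994, plus strand) had 8.36, 20.5, 27.7 and 9.14 CPM in CD249+ fibroblasts of mice 2, 7, 8 and 10, against 26.3, 44.2, 40.0 and 38.2 CPM in CD249− fibroblasts. It was lower in the CD249+ fraction of each mouse, and the fractions overlapped only through the CD249+ library of mouse 8 and the CD249− library of mouse 2. The fold change was -1.18 (SE 0.37, adjusted p = 0.0351). A fit that kept each mouse as a block gave -1.33 (adjusted p = 0.00275). Without that block the call was lost when the CD249+ library of mouse 2, 7 or 10 or the CD249− library of mouse 7, 8 or 10 was left out (adjusted p = 0.0503 to 0.0834), and without both libraries of mouse 7 or 10 (adjusted p = 0.109 and 0.132).

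The ratio of Sfrp1 to Sfrp4 within a library does not depend on how libraries are scaled. It was 9.57, 8.40, 5.20 and 16.5 in CD249+ fibroblasts of mice 2, 7, 8 and 10, against 1.23, 0.942, 0.957 and 1.23 in CD249− fibroblasts, as CPM over CPM. The pair was picked after its values were seen, so the ratio is given without a test.

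Sfrp2 and Frzb, which encode further Frizzled-related proteins, did not pass. Sfrp2 (ENSMUSG00000027996.13, chromosome 3, 83766321 to 83774316, plus strand) had 7.08, 19.7, 6.83 and 7.50 CPM in CD249+ fibroblasts of mice 2, 7, 8 and 10, against 8.40, 35.6, 9.34 and 14.6 CPM in CD249− fibroblasts. Mouse 7 was highest in both fractions and the groups overlapped, but the CD249+ value was the lower one in each mouse. The fold change was -0.73 (SE 0.52, adjusted p = 0.322). In the blocked fit it was -0.63 and was called (adjusted p = 0.0280). Without the block the value was -1.25 when the CD249+ library of mouse 7 was left out and -0.07 when its CD249− library was left out. With both libraries of mouse 7 left out it was -0.60, near the value with all libraries, and none of these was called. Frzb (ENSMUSG00000027004.3, chromosome 2, 80411970 to 80447625, minus strand) had 0.889, 1.06, 1.06 and 0 CPM in CD249+ fibroblasts of mice 2, 7, 8 and 10, against 0.365, 4.27, 1.33 and 1.65 CPM in CD249− fibroblasts. These are 0 to 30 counts in CD249+ and 11 to 122 in CD249− libraries, and 0 counts in the CD249+ library of mouse 10 allow up to 0.103 CPM (3 counts, counting error only). Its fold change of -1.33 (SE 1.05, adjusted p = 0.374) did not pass, and the groups overlapped. Without the CD249− library of mouse 7 it was -0.57.

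Wif1 encodes a secreted protein with a WIF domain that binds Wnts directly. The gene (ENSMUSG00000020218.11, chromosome 10, 121033960 to 121100650, plus strand) had 14.2, 43.8, 33.6 and 39.3 CPM in CD249+ fibroblasts of mice 2, 7, 8 and 10, against 2.52, 4.34, 6.21 and 11.5 CPM in CD249− fibroblasts. The fractions did not overlap, although the CD249+ library of mouse 2 came close to the CD249− library of mouse 10. With a fold change of 2.41 (SE 0.48, adjusted p = 0.00383) Wif1 rose in each of 4 mice, and within single mice the ratio of CD249+ to CD249− ran from 3.42 in mouse 10 to 10.1 in mouse 7.

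Dkk3 and Dkk2 belong to the Dickkopf family. DKK3 is its divergent member, which does not act on LRP co-receptors in the way that DKK1 and DKK2 do. Dkk3 (ENSMUSG00000030772.5, chromosome 7, 112116017 to 112159057, minus strand) had 505, 556, 687 and 533 CPM in CD249+ fibroblasts of mice 2, 7, 8 and 10, against 109, 110, 132 and 116 CPM in CD249− fibroblasts. The fractions were far apart, with a fold change of 2.29 (SE 0.13, adjusted p = 3.56e-06), a 4.89-fold difference. The ratio within a mouse was between 4.59 and 5.22. Dkk2 (ENSMUSG00000028031.6, chromosome 3, 132085292 to 132180304, plus strand) had 1.02, 6.05, 2.69 and 3.59 CPM in CD249+ fibroblasts of mice 2, 7, 8 and 10, against 0.0996, 3.01, 1.83 and 0.779 CPM in CD249− fibroblasts. It was higher in the CD249+ fraction of each mouse, but the groups overlapped and the fold change of 1.22 (SE 0.85, adjusted p = 0.315) did not pass, nor did the blocked fit (1.65, adjusted p = 0.0683). Without the CD249+ library of mouse 7 it was 0.77, and without the CD249− library of that mouse 1.89. The CD249− library of mouse 2 rests on 3 counts of Dkk2.

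Axin2 encodes a scaffold of the complex that marks beta-catenin for breakdown. The gene (ENSMUSG00000000142.15, chromosome 11, 108920349 to 108950783, plus strand) had 18.7, 20.5, 17.5 and 14.8 CPM in CD249+ fibroblasts of mice 2, 7, 8 and 10, against 9.09, 5.22, 8.34 and 6.23 CPM in CD249− fibroblasts. All CD249+ libraries lay above all CD249− libraries, at a fold change of 1.31 (SE 0.22, adjusted p = 0.00142).

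Nkd1 encodes a protein that binds Dishevelled, the transducer below Frizzled. The gene (ENSMUSG00000031661.11, chromosome 8, 88521354 to 88594884, plus strand) had 283, 148, 189 and 179 CPM in CD249+ fibroblasts of mice 2, 7, 8 and 10, against 481, 330, 343 and 351 CPM in CD249− fibroblasts. Every CD249+ library was below every CD249− library, and mouse 2 was highest in both fractions. The fold change was -0.91 (SE 0.20, adjusted p = 0.00723), lower in 4 of 4 mice. The endothelial genes moved in the same direction: for each 100 CPM of the 12 endothelial genes together there were 4.31 ± 0.415 CPM of Nkd1 in CD249+ and 2.91 ± 0.164 CPM in CD249− fibroblasts (SD, n = 4 each), with no overlap between libraries. The endothelial sums were 7117, 3786, 4092 and 3805 CPM in CD249+ fibroblasts of mice 2, 7, 8 and 10. In CD249− fibroblasts they were 15581, 12254, 11584 and 12202 CPM. Mouse 2 was thus highest in both fractions for these sums as for Nkd1. The full order of mice was the same as for Nkd1 in CD249+ but not in CD249− fibroblasts. The part of endothelial transcripts in the Nkd1 result was not tested further.

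Axin2 and Nkd1, both known Wnt-induced genes, thus moved in opposite directions. The ratio of Axin2 to Nkd1 within a library, free of the scaling, was 0.0661, 0.138, 0.0928 and 0.0824 in CD249+ fibroblasts of mice 2, 7, 8 and 10, against 0.0189, 0.0158, 0.0243 and 0.0178 in CD249− fibroblasts. This pair too was picked after its values were seen.

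Lef1 encodes a DNA-binding partner of beta-catenin and is also made by T lymphocytes. The gene (ENSMUSG00000027985.14, chromosome 3, 131110471 to 131224356, plus strand) had 13.2, 12.3, 14.3 and 12.4 CPM in CD249+ fibroblasts of mice 2, 7, 8 and 10, against 1.29, 10.2, 17.3 and 7.28 CPM in CD249− fibroblasts. The CD249+ libraries were nearly equal while the CD249− libraries spread widely and enclosed them. The fold change of 0.54 (SE 0.55, adjusted p = 0.502) did not pass. It was 0.19 without the CD249− library of mouse 2, 1.06 without that of mouse 8 and 0.90 with mouse as a block, and none of these was called. Of the 9 lymphocyte genes 1 was called, lower in CD249+ fibroblasts. Their sums were 35.1, 51.7, 78.4 and 60.1 CPM in CD249+ fibroblasts of mice 2, 7, 8 and 10, against 32.9, 121, 184 and 119.7 CPM in CD249− fibroblasts. In the CD249− libraries these sums and the Lef1 levels stood in the same order of mice, lowest in mouse 2 and highest in mouse 8. In the CD249+ libraries both were highest in mouse 8, but Lef1 was lowest in mouse 7 and the sums in mouse 2. In mouse 2 the sums were close between fractions while Lef1 was 13.2 CPM in CD249+ and 1.29 CPM in CD249− fibroblasts. The part of lymphocyte transcripts in the Lef1 levels was not tested. In the GENCODE annotation, exons of Axin2, Lef1 and Sfrp2 overlap those of genes on the opposite strand, by 209, 1208 and 347 bases, and these libraries do not mark strand.

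Differences between mice recurred in both fractions. Mouse 2 was the lowest of the 4 in both fractions for 5 of the 10 genes, namely Sfrp1, Sfrp4, Dkk2, Dkk3 and Wif1, and the highest in both for Nkd1. Mouse 7 was the highest in both fractions for Sfrp2, Dkk2 and Frzb (with 30 Frzb counts in the CD249+ libraries of mice 7 and 8 alike), and mouse 8 for Dkk3 and Lef1. Mouse 2 also had the lowest sum of the core collagen genes in both fractions, 14066 CPM in CD249+ and 4223 CPM in CD249− fibroblasts. Its endothelial sums were the highest in both, at 7117 and 15581 CPM. These values describe the libraries, and the part of the cell mixtures in them was not tested.

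Levels of different genes were compared as CPM per kb of exon. In CD249+ fibroblasts Dkk3 was the most abundant of the 10 at 170 ± 24.0 CPM per kb, followed by Nkd1 at 43.9 ± 12.8 and Sfrp1 at 31.3 ± 9.07, whose libraries overlapped each other but not those of Dkk3 or Wif1. Wif1 stood at 13.5 ± 5.37, Sfrp2 at 4.77 ± 2.91, Sfrp4 at 3.93 ± 2.23 and Axin2 at 3.25 ± 0.435 CPM per kb, and each of these neighbours overlapped the next. Axin2 did not overlap Lef1, and Lef1, Dkk2 and Frzb were the lowest at 1.48 ± 0.104, 0.901 ± 0.567 and 0.233 ± 0.157 CPM per kb in CD249+ fibroblasts (SD, n = 4 throughout). In CD249− fibroblasts Nkd1 was highest at 82.6 ± 15.4 CPM per kb and Dkk3 next at 34.7 ± 3.14, without overlap. Sfrp1, Sfrp4 and Sfrp2 followed there, below every Dkk3 value, at nearly equal mean levels of 9.10 ± 1.38, 8.90 ± 1.84 and 7.90 ± 5.91 CPM per kb, and from Sfrp1 downward each neighbour in the order overlapped the next. The leading transcript of the set was thus Dkk3 in CD249+ and Nkd1 in CD249− fibroblasts: CPM of Dkk3 over CPM of Nkd1 ran from 1.78 to 3.75 in CD249+ and from 0.226 to 0.384 in CD249− libraries.

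**Figure D2:**
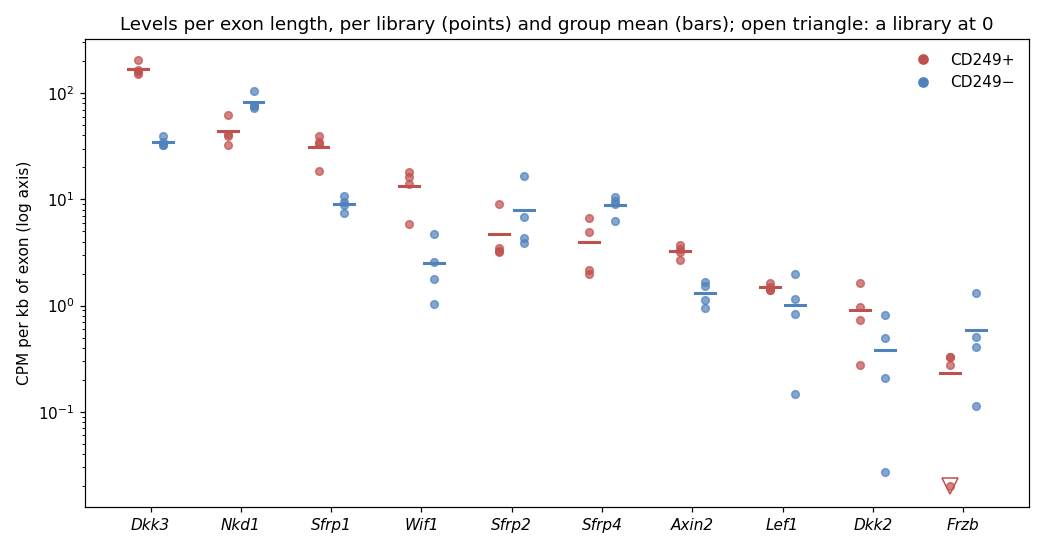
CPM per kb of merged exon length on a log axis, with a point for each library and a bar for the mean of 4 libraries, CD249+ (red) left of CD249− (blue); genes run in the order of their CD249+ means. Dkk3 leads in CD249+ at 170 CPM per kb and Nkd1 in CD249− at 82.6, and the open triangle marks the CD249+ library of mouse 10, listed at 0 for Frzb.

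Other genes of the pathway were read from the same fit. Of 14 other extracellular inhibitors 9 passed the filter on low counts, of which 3 rose and 6 did not pass the test, at a median of 0.28. Trabd2b, which encodes a protease that cleaves Wnts, averaged 70.6 ± 18.2 CPM in CD249+ and 11.1 ± 2.31 CPM in CD249− fibroblasts (SD, n = 4 each; log2 fold change 2.67, adjusted p = 2.99e-05). Notum, a carboxylesterase that removes the lipid of Wnts, averaged 62.3 ± 19.3 CPM in CD249+ and 5.48 ± 2.81 CPM in CD249− fibroblasts (3.51, adjusted p = 0.000378), and Apcdd1, a membrane inhibitor, rose by 1.67. Dkk1 and Dkk4 had no count in any library, which allows up to 0.0899 to 0.125 CPM per library.

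Among 13 tested feedback and target genes beyond Axin2, Lef1 and Nkd1, 5 rose, 2 fell and 6 did not pass, at a median of 1.31. Tnfrsf19, a receptor of the TNF receptor family, averaged 238 ± 24.0 CPM in CD249+ and 9.25 ± 5.23 CPM in CD249− fibroblasts (log2 fold change 4.68, adjusted p = 1.95e-05). Lgr5, an R-spondin receptor gene that is also on the myofibroblast list, rose by 4.33, and Znrf3, an E3 ligase that removes Frizzled from the surface, by 1.58. The cyclin gene Ccnd1 stood at -1.13 (adjusted p = 0.0283) and Tcf7, a relative of Lef1, at -0.56 (adjusted p = 0.0331), both lower in CD249+ fibroblasts.

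Of 10 tested Wnt ligand genes 7 rose and 3 did not pass, at a median of 1.61, with Wnt4 at 3.22, Wnt2 at 3.70 and Wnt5a at 1.51. Wnt2 is also on the alveolar fibroblast list. Of 19 tested receptor and R-spondin genes 10 rose, 2 fell and 7 did not pass. The receptor genes that rose include a gene that is also on the myofibroblast list. The Frizzled genes moved both ways, with Fzd1 at 2.06 and Fzd7 at 2.11 against Fzd6 at -1.30 and Fzd4 at -1.02, and the co-receptor gene Ryk rose by 0.98. Of 23 intracellular transducers 6 rose, 2 fell and 15 did not pass, at a median of 0.07 close to that of all genes. The corepressor genes of the Tle family moved both ways, Tle3 at 1.04 against Tle4 at -0.93 and Tle1 at -0.62, while Apc2 rose by 2.65 and Tcf7l1 by 1.10. Over these lists 31 of 74 tested genes rose and 6 fell, and with mouse as a block 34 rose and 10 fell, where 2809 of all 14524 genes tested were called higher and 2489 lower. On the collagen scale the split turned to 8 higher and 39 lower, about a median of all genes of -1.66.

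**Figure D3:**
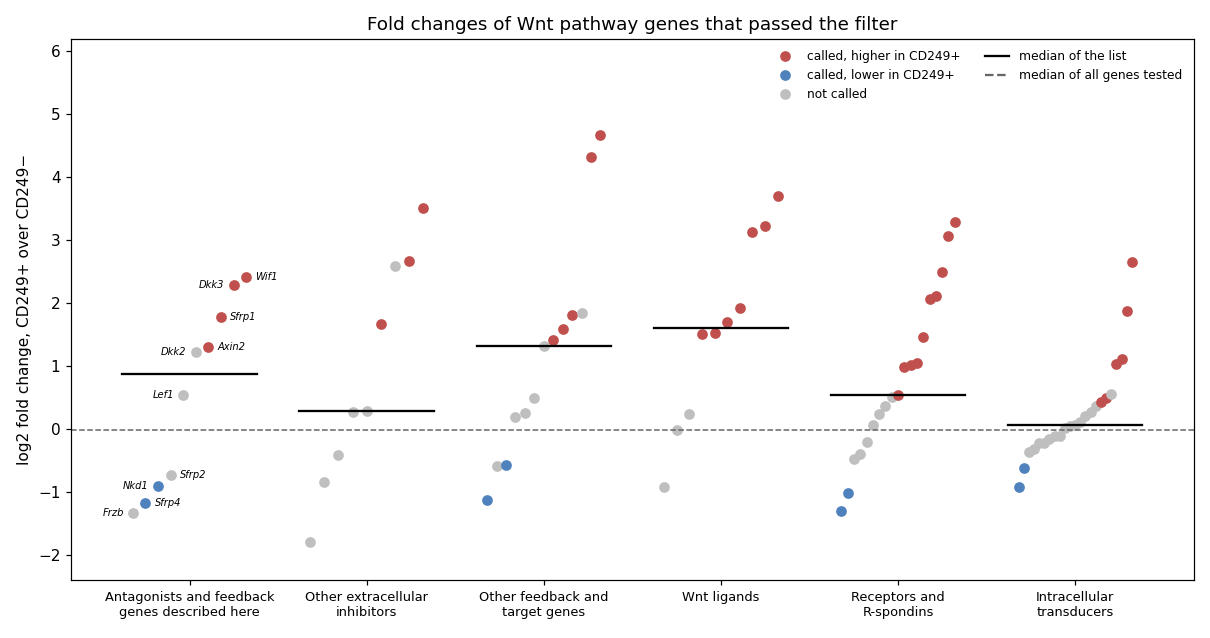
Log2 fold change of CD249+ over CD249− for the 10 genes and for each other Wnt list, a point per gene that passed the filter, coloured by call, with a line at the median of each list and a dashed line at the median of all genes tested. The 10 genes have a median of 0.88, Wnt ligands 1.61 and intracellular transducers 0.07; on the collagen scale, where the median of all genes is -1.66, 0 of the 10 are called higher.

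Sfrp1, Dkk3, Wif1, Axin2 and Nkd1 were called in each of the 12 fits that left out 1 library or both libraries of 1 mouse, and Sfrp4 in 4 of them. None of those fits kept mouse as a block. Over those fits Dkk3 stayed between 2.19 and 2.36, Sfrp1 between 1.65 and 1.98, Axin2 between 1.11 and 1.46, Wif1 between 2.10 and 2.91 and Nkd1 between -1.12 and -0.76, while Sfrp4 ran from -1.55 to -0.94. Without the CD249+ library of mouse 10, the one rich in epithelial transcripts, the fold changes were 1.73 for Sfrp1, 2.32 for Dkk3, 2.31 for Wif1, 1.39 for Axin2 and -0.86 for Nkd1, all called, and -0.98 for Sfrp4, which was not (adjusted p = 0.0796).

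**Figure D4:**
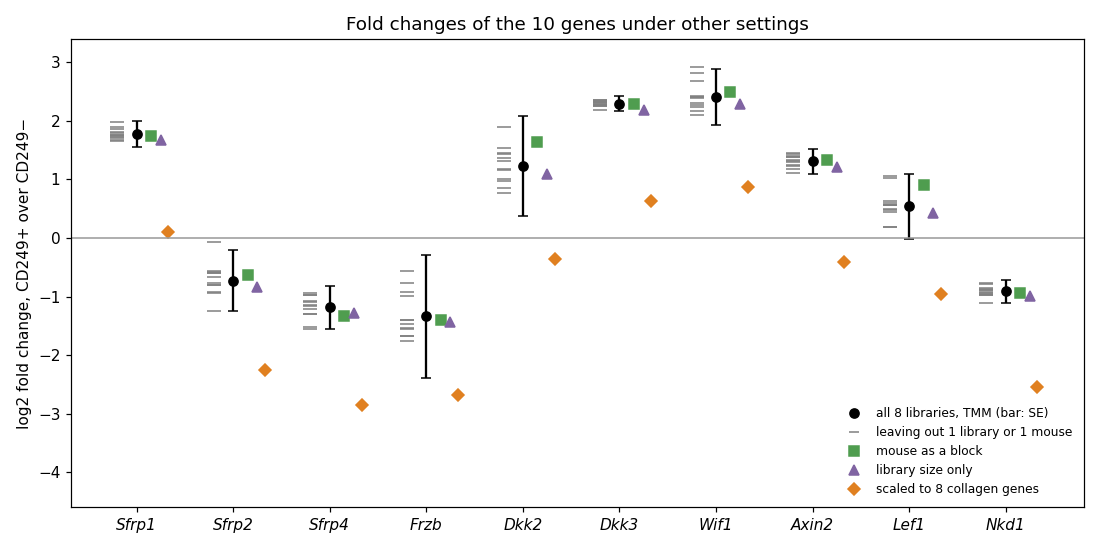
Log2 fold change of CD249+ over CD249− for each gene with all libraries (black, bar 1 SE), with 1 library or mouse left out (grey ticks), with mouse as a block (green), with library size only (purple) and scaled to 8 collagen genes (orange). Dkk3 spans 2.19 to 2.36 over the grey ticks, Nkd1 is below 0 in every setting drawn, and Axin2, Dkk2 and Lef1 cross 0 on the collagen scale.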

How the data were processed

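Total RNA of sorted lung fibroblasts was amplified from 10 ng with the SMART-Seq V4 kit and oligo(dT) priming, and sequenced as 75 bp single reads, per the labels' protocols. The authors deposited expected counts (estimated counts per gene, 12.0% of them not whole). The submitters' processing notes name STAR 2.6.1, RSEM 1.2.28 and DESeq2 1.26.0 with no roles, and the human build GRCh38, although the identifiers are mouse genes. The build behind the counts is therefore not given in the sources used here. Positions and exon lengths come from GENCODE M21 (GRCm38), where all 10 genes were found by identifier, 7 with the same version.

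Counts were rounded, and 92 spike-in entries, all 0, were left out. filterByExpr kept 14524 genes, including all 10, and edgeR 4.0.16 (R 4.3.3) fitted group alone after TMM scaling. Both fractions of a number come from 1 lung, per the labels. Across genes, each library's departure from its group mean correlated with that of the same mouse's other fraction (0.132 to 0.285) and less with those of other mice (-0.212 to 0.0515). The fit with mouse as a replicate block was an alternative, beside other scalings, no filter, DESeq2 1.42.0, limma-voom (limma 3.58.1) and left-out libraries. The fits were tested on simulated data. P-values measure the spread among 4 mice per fraction. Counting intervals do not cover amplification, since reads carry no molecular identifiers. The 10 genes and all lists were chosen with earlier results of these data known. Named genes are the 10, Enpep, up to 3 called genes per direction with the smallest p of each other Wnt list, and marker genes named as the highest or at 0; Gja5 and the untested Dkk1 and Dkk4 were named after their values were seen.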

Additional observations from a re-analysis of the deposited data

Results flagged for a closer look

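In 20 groups of 4 libraries (10 genes in 2 fractions), 3 had a library far from the other 3 by Dixon's test, where chance gives about 1 in 20. Sfrp2 had 19.7 CPM in the CD249+ library of mouse 7, against 6.83 to 7.50 CPM in the other CD249+ libraries. Frzb had 0 CPM in the CD249+ library of mouse 10, against 0.889 to 1.06 CPM in the others. Nkd1 had 481 CPM in the CD249− library of mouse 2, against 330 to 351 CPM in the others. The endothelial genes also had their highest sum, 15581 CPM, in that library.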

How the results depend on the processing

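On the scale of 8 collagen genes, the median of all genes was -1.66, 404 genes were called higher and 11019 lower, 0 and 4 of the 10 genes, and 8 and 39 of the other Wnt genes; Axin2 stood at -0.41, Dkk2 at -0.36 and Lef1 at -0.95. Those collagen genes were called higher on the TMM scale, while the collagen scale sets their sum equal between libraries. Which scale is nearer to the RNA per cell was not tested. The fits leaving out 1 library or mouse gave 1201 to 1979 genes called lower and 1 to 2 of the 10 genes called lower, as the call of Sfrp4 was lost; the count of genes fell to 1341, 1201 and 1291 without mouse 7, 8 or 10. Where 1 library was left out, its group had 3. Other Wnt genes called lower numbered 10 with the replicate block, with library size only and with DESeq2, against 6, while all genes called lower numbered 2489, 2690 and 2352 in that order, against 2013. With library size only 2106 genes were called higher, against 2455, and the median of all genes was -0.12. The replicate block added the call of Sfrp2 and changed no other call among the 10 genes. Under every alternative but the collagen scale, 4 of the 10 genes were called higher. Relative counting error was widest for Frzb and Dkk2, at 0 to 171 counts per library, and was not separated from the spread between mice.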
